A study of Mus musculus with 13 samples.

Results

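The 8 long noncoding RNA genes Meg3, Rian, Mirg, Malat1, Neat1, Snhg11, Miat and Kcnq1ot1 were followed in RNA-seq libraries of sorted mouse sensory neurons. They were chosen by name, by matching the Ensembl gene identifiers of the deposited count tables to mouse symbols, and all 8 were found among 41388 genes. The cells carried the enhanced green fluorescent protein EGFP at Ret, which encodes the receptor tyrosine kinase of the GDNF family of growth factors. They were sorted by fluorescence from dorsal root ganglia, the clusters of sensory neuron cell bodies beside the spinal cord. All 13 libraries came from C57BL/6 mice aged 3 months. The genotype label reads Tg(Ret-EGFP)SJ, whereas the series text describes a heterozygous knock-in at the Ret locus, so all groups shared the reporter and, by that text, 1 modified Ret allele. Each library pooled the ganglia of 2 to 9 mice. The 4 groups were female L345 (lumbar levels L3, L4 and L5; 3 libraries, 14 mice), female L6S1 (levels L6 and S1; 3 libraries, 16 mice), male L345 (3 libraries, 11 mice) and male L6S1 (4 libraries, 20 mice). Libraries are named here by group and by the letter in their titles, A to C, or A, D, E and F for male L6S1.

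Each library held between 13030096 and 27011995 gene counts. All 18 sensory neuron genes of the marker list had counts in every library. That alone does not mark a pure population, since all 10 listed endothelial and mural genes did too. The sensory neuron genes summed to 21819 to 39136 CPM, the counts scaled to a common library size with factors from the trimmed mean of M values (TMM). Ret itself lay between 87.2 CPM, in male L6S1 E, and 221 CPM. Glial genes were also present, with a summed level of 3318 to 9832 CPM, led by Pmp22 (1922 to 3690 CPM) and Apoe (349 to 4985 CPM). Mbp lay between 82.6 and 261 CPM and Sox10 between 1.51 and 9.36 CPM. Fibroblast genes (sum 83.2 to 603 CPM, led by Dcn) and endothelial and mural genes (sum 149 to 502 CPM, led by Rgs5) were present too. The 12 immune genes summed to 8.18 to 40.1 CPM: C1qb, Cd68, Aif1, Cd74, Lyz2 and Fcer1g had counts in all 13 libraries, whereas C1qa and the T cell gene Cd3e were each at 0 in 10. Male L6S1 libraries D and E stood apart from the rest: on the first principal component (46.4% of the variance) they lay 5.07 and 7.51 standard deviations from the mean of the other 11. The same 2 libraries held the 2 highest summed levels of ribosomal protein genes, 15137 and 14146 CPM against 4491 to 6519 CPM elsewhere. Library E also held the highest glial sum. Over the 17 glial genes, however, the median log2 fold change of L6S1 against L345 in males was -0.61. The Malat1 differences, which rest on male L6S1 D and E, are given with and without these 2 libraries.

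Long noncoding RNAs are transcripts that act without being translated, and the members differ in genomic origin and in what they do. Malat1 and Neat1 are neighbouring nuclear RNAs: Malat1 collects in nuclear speckles, which store splicing factors, and the long form of Neat1 is the scaffold of paraspeckles. Meg3, Rian and Mirg are transcribed from the maternal chromosome of the imprinted Dlk1-Dio3 domain and host microRNAs and small nucleolar RNAs. Kcnq1ot1 is transcribed from the paternal chromosome, antisense to the potassium channel gene Kcnq1, and silences neighbouring imprinted genes in cis. Miat (also Gomafu) is a nuclear RNA of neurons that binds splicing factors, and Snhg11 is a small nucleolar RNA host gene expressed in neurons.

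All positions are on GRCm38, as the deposited tables give them. On chromosome 12 plus strand, Meg3 spans chr12:109541001-109571726, Rian chr12:109603940-109661716 and Mirg chr12:109729764-109749460, with 32213 bases between the first pair and 68047 between the second. On chromosome 19 minus strand, Malat1 (chr19:5795690-5802672) and Neat1 (chr19:5824708-5845478) are each 1 exonic block and lie 22035 bases apart. Snhg11 is at chr2:158375638-158386145 on the plus strand and Miat at chr5:112213228-112229395 on the minus strand. Kcnq1ot1, at chr7:143212155-143296549 on the minus strand, lies wholly inside the span of Kcnq1, chr7:143106362-143427042, which is transcribed from the plus strand. GENCODE M21 classes Meg3, Mirg, Malat1, Neat1 and Miat as lincRNA, Rian as processed transcript, Kcnq1ot1 as antisense and Snhg11 as protein coding, so for Snhg11 that annotation goes against the class the other members share.

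The 3′ tract that ends mature Malat1 and Neat1 is shown because it is the sequence feature by which these 2 neighbours are best known: it folds into a triple helix of U-rich motifs around an A-rich end, which stabilises RNAs that lack an ordinary poly(A) tail. Both windows are 100 bases of the GENCODE M21 transcript ending in the 11 bases AAAAAGCAAAA, with those 11 bases, which end the annotated Neat1 transcript, and exact copies of TTTTGCTTTT, the reverse complement of the last 10 of them, in capitals. The Malat1 window lies at chr19:5795982-5796081 and the Neat1 window at chr19:5824708-5824807, both on the minus strand.
Malat1: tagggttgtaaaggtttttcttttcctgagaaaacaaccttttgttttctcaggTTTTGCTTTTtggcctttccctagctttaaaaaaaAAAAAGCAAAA
Neat1: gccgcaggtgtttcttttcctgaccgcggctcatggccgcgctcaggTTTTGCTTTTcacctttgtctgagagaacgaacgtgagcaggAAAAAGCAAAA
The annotated Neat1 transcript ended exactly at this tract, whereas the Malat1 transcript ran on for 292 bases, the stretch that is cut off in maturation. Taking the longest transcript of each gene, read on its own strand, 304 of 55450 genes (0.548%) held the 11 bases, and so did 56 of 7502 long noncoding genes with a transcript of at least 1000 bases (0.746%). Among the members Malat1, Neat1 and Snhg11 each held 1 copy. A match is a description of letters only.

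In Miat the repeated motif ACTAAC, which resembles the branch point of introns and for which the RNA is known, is shown in the 120 bases that hold most copies (4 of 11 in its longest transcript; chr5:112216762-112216881, minus strand), with ACTAAC in capitals.
Miat: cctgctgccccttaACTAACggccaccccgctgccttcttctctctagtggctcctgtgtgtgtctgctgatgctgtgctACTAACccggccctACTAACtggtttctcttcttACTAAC
The density in Miat, 1.20 copies per 1000 bases, was above that of 99.1% of the same 7502 long noncoding genes. The other members had between 0 and 0.262 copies per 1000 bases, with 0 copies in Malat1 and Rian. Kcnq1ot1 differed from the other members by its length, 93092 bases in GENCODE M21 and 84395 in the deposited tables, and by its runs of A. Its longest, 41 bases at chr7:143226925-143227005 with 20 bases on each side and the run in capitals, was longer than the longest run of 99.9% of those genes. Unlike the ACTAAC density, this comparison was not scaled to transcript length, so the part of the length of Kcnq1ot1 in it was not tested.
Kcnq1ot1: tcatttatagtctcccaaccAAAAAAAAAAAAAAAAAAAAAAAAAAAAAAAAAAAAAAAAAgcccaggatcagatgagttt
The longest run of A was 16 bases in Meg3, 15 in Rian, 12 in Malat1, 8 in Snhg11, 7 in Neat1, 5 in Mirg and 4 in Miat. The complementary DNA was made with the SMARTer Ultra Low Input kit, which as background starts synthesis from an oligo(dT) primer that anneals to runs of A.

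The microRNAs carried in the exons of Meg3 and Mirg are shown because they are the best known products of these hosts. RefSeq (GRCm38.p6) places 1 hairpin on the strand of Meg3 and inside an exon, 3 hairpins inside introns of Rian, and 14 within Mirg, of which 4 lie wholly in exons, 5 in introns and 5 across an exon edge. All 9 mature sequences that RefSeq gives for the exonic hairpins follow, with the seed (bases 2 to 8) in capitals.
miR-770-5p (Meg3): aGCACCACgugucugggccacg
miR-770-3p (Meg3): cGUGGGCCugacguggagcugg
miR-134-5p (Mirg): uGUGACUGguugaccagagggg
miR-134-3p (Mirg): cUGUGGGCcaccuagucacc
miR-485-3p (Mirg): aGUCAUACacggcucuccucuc
miR-377-5p (Mirg): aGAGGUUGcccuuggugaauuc
miR-377-3p (Mirg): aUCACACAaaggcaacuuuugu
miR-410-5p (Mirg): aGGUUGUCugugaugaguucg
miR-410-3p (Mirg): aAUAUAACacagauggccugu
No seed was shared among these 9. Among all mature microRNAs inside the 3 hosts, miR-453 and miR-496a-5p, both in introns of Mirg, shared the seed GGUUGCC. The libraries did not measure mature microRNAs: the 53 genes with a microRNA symbol (Mir) in the stretch from Meg3 to Mirg held 73 counts in all, in 19 of the 53. Outside that number, GENCODE M21 also classes Gm23912, Gm25750, Gm25252, Gm27379 and Gm24321 as microRNA, and they held 0, 3, 9, 1 and 0 counts.

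Of the 8, only Malat1 and Snhg11 were abundant in these cells. Malat1 averaged 5919 CPM and made up 0.573% of all gene counts, and it ranked 8 by mean CPM among the 26901 genes with a count. Snhg11 averaged 1124 CPM and ranked 86. The other members were far lower, with mean levels of 25.9 CPM for Miat, 13.2 for Kcnq1ot1, 11.3 for Meg3, 7.01 for Mirg and 5.23 for Neat1. Among the 3511 annotated long noncoding genes with a count, of which Snhg11 is not one, Malat1 ranked 2 by mean CPM, Miat 36, Kcnq1ot1 64, Meg3 75, Mirg 114 and Neat1 147.

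**Figure D1:**
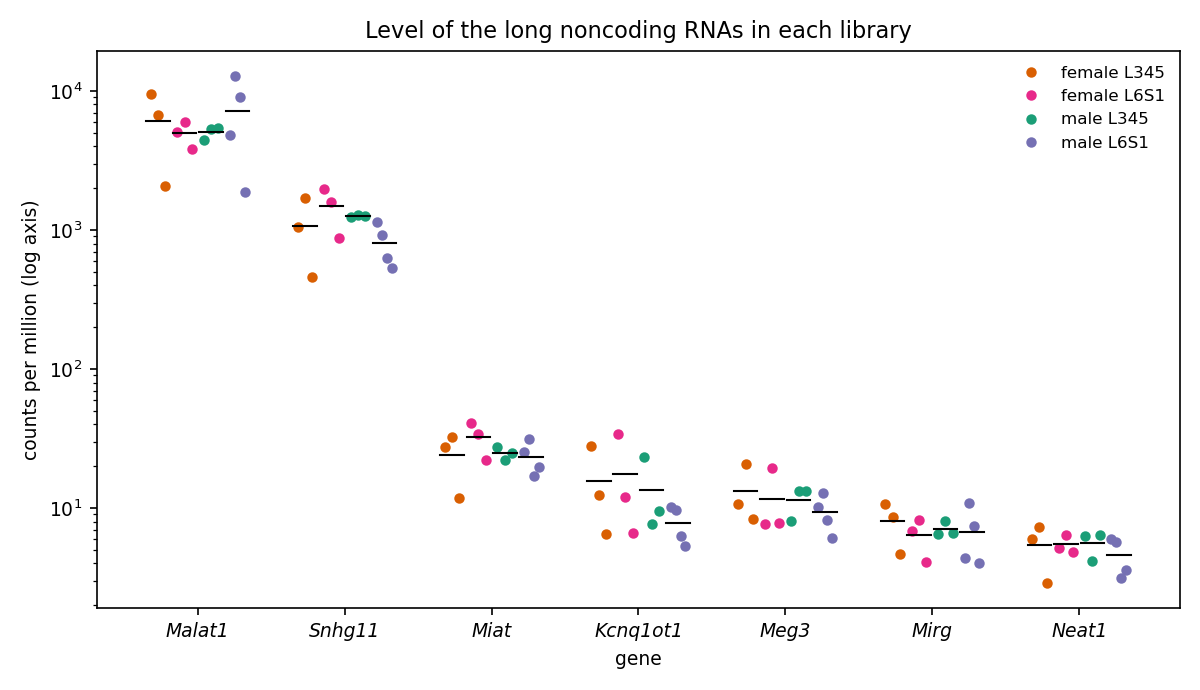
TMM-scaled CPM (log axis) of 7 members in each of 13 libraries, coloured by group, with the group mean as a black bar; Rian is not drawn because it had 1 count in all. Malat1 (1888 to 12808 CPM) and Snhg11 (461 to 1968 CPM) lie far above the other members, and the groups overlap for nearly every gene.

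Per length the order changed for the long transcripts. In CPM per kilobase of exonic length (RPKM, here with TMM scaling), Malat1 averaged 848, Snhg11 132, Miat 2.79, Mirg 0.962, Meg3 0.624, Neat1 0.252 and Kcnq1ot1 0.156. This order held between every pair of neighbours in 13 of 13 libraries, except that Neat1 was above Kcnq1ot1 in 11 of 13. Among the tested genes, 99.6% had a lower mean RPKM than Malat1 and 96.7% a lower one than Snhg11. The corresponding shares were 47.0% for Miat, 27.2% for Mirg, 20.4% for Meg3, 8.96% for Neat1 and 4.69% for Kcnq1ot1, so per length these 5 lay below the median tested gene. Kcnq1ot1 had more reads than Meg3, Mirg or Neat1 and the lowest level per length of the 7. Dividing by the longest annotated transcript instead of the deposited exonic length raised Mirg to 1.83 and Snhg11 to 192 and left the order as it was.

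Rian was nearly without counts, and whether this reflects the RNA, its annotation or the way reads were counted was not tested. A single count was found in male L6S1 library F, and the other 12 libraries held 0. There a limit of 3 counts corresponds to between 0.126 and 0.230 CPM, here over the library total without TMM factors. Its neighbours of the same cluster and strand were read: Meg3 had 109 to 413 counts and Mirg 85 to 231 counts in each library. B830012L14Rik, an annotated lincRNA at chr12:109695586-109702587 between Rian and Mirg, which was chosen after its values were seen, had counts in all 13 libraries and lay between 1.29 and 15.1 CPM. The paternally expressed protein-coding genes of the same domain were absent: Dlk1, a Notch-related membrane protein, and Rtl1, a retrotransposon-derived gene, had 0 counts in all 13 libraries, and Dio3, the thyroid hormone inactivating deiodinase, had 2 counts in all. With 0 counts, at most 3 counts per library are allowed, for counting error only. Rian therefore entered no test.

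The central comparison of the study is between spinal levels L6S1 and L345. None of the 7 members that passed the low-count filter was called (edgeR quasi-likelihood test, Benjamini-Hochberg adjusted p under 0.05 over 15406 genes) in females, in males or over both sexes. The share of all tested genes called was 0.448% over both sexes (69 genes), 0.0195% in females (3 genes) and 0.221% in males (34 genes). These background counts depended on the fit: that in males was 965 with DESeq2, 719 with the title letter as a block and 3135 without male L6S1 A, and over both sexes the count was 28 without female L345 B and 837 with the block. The difference of the level effect between the sexes was called for 0 members and 0% of genes; at an unadjusted p under 0.05 there were 0 members and 1805 genes. Over both sexes the members' log2 fold changes ran from -0.29 to 0.17, with 2 above zero and 5 below and a median of -0.13, beside a median of 0.02 over all tested genes. These limits are wide, and a member that was not called is not thereby shown to be equal between levels.

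**Figure D2:**
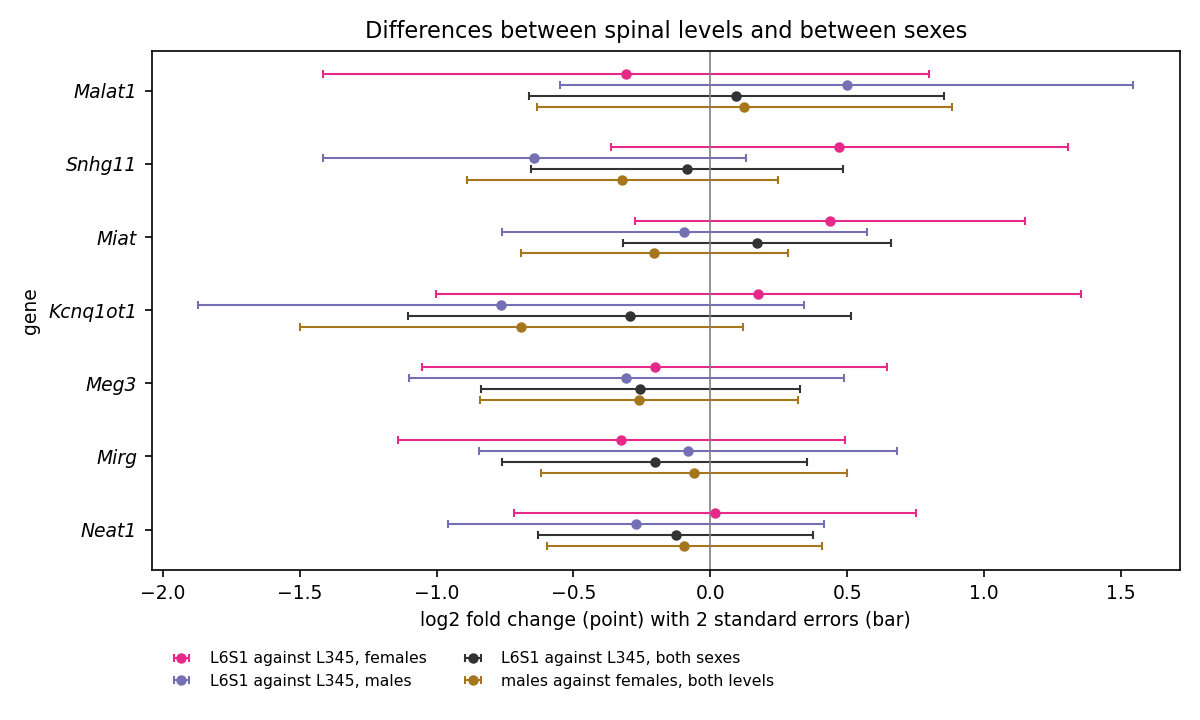
Log2 fold change of 7 members (point) with 2 standard errors on each side (bar) for L6S1 against L345 in females, in males and over both sexes, and for males against females over both levels. Every drawn bar crosses zero, and the widest bars belong to Malat1 and Kcnq1ot1.

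Malat1 varied widely between libraries of 1 group. In female L345 it lay at 9553 CPM in library A, 6766 in B and 2084 in C. In female L6S1 it lay at 5062, 5983 and 3809 CPM in A, B and C. The groups overlapped, with both the highest and the lowest female value in L345. In male L345 it lay at 4466, 5293 and 5393 CPM in A, B and C. In male L6S1 it lay at 4850 CPM in A, 12808 in D, 8988 in E and 1888 in F, so the 4 values of that group enclosed all 3 of male L345 and the lowest and highest of the 13 were both in it.

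The difference in Malat1 between L6S1 and L345 was 0.09 on the log2 scale over both sexes (SE 0.38, adjusted p = 0.937, edgeR), between -0.66 and 0.85 at 2 SE. In females it was -0.31 (SE 0.55) and in males 0.50 (SE 0.52), and the difference between those effects was 0.81 (SE 0.76, adjusted p = 0.600, edgeR). Without male L6S1 D and E, the value over both sexes was -0.45 (SE 0.34) and the value in males -0.59 (SE 0.51), so the sign of the male difference rested on those 2 libraries. Leaving out library D alone gave -0.15 over both sexes and 0.02 in males. The value in females was 0.14 without female L345 A. The SD of log2 CPM within groups was 0.90 for Malat1, higher than that of 98.5% of tested genes, whose median was 0.41. Counting error at its smallest count, 50749, was 0.444% of the value.

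Neat1 was more even than Malat1, with an SD of log2 CPM within groups of 0.42, higher than that of 53.0% of tested genes. Its counts are per gene and do not separate the long form, the paraspeckle scaffold, from other forms. Its lowest value was 2.92 CPM in female L345 C and its highest 7.35 CPM in female L345 B. The group means ± SD were 5.42 ± 2.27 CPM in female L345 (n = 3), 5.48 ± 0.854 in female L6S1 (n = 3), 5.60 ± 1.23 in male L345 (n = 3) and 4.63 ± 1.46 in male L6S1 (n = 4). The L6S1 against L345 difference over both sexes was -0.13 (SE 0.25, adjusted p = 0.866, edgeR). With 54 to 145 counts in a library, counting error alone is 13.6% at the lowest count.

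The genes of the proteins that form the bodies around these RNAs were read in the same libraries, as RNA only, and no protein was measured. All 21 listed genes of paraspeckle proteins were tested and 0 were called in either direction between levels or between sexes. Nono lay between 67.9 and 104 CPM, Sfpq between 29.5 and 66.8 CPM and Pspc1 between 7.87 and 21.6 CPM. The lowest p in the list between levels belonged to Nudt21, a 3′ processing factor, at -0.62 (SE 0.24, adjusted p = 0.497, edgeR), and then to Rbmx at -0.41 (SE 0.16, adjusted p = 0.518, edgeR). Of 21 nuclear speckle and splicing genes, 20 were tested and 0 were called; Qk, an RNA-binding regulator of splicing, was at -0.90 (SE 0.26, adjusted p = 0.249, edgeR). Of the 16 genes flanking Malat1 and Neat1, 14 were tested and 0 were called, with a median log2 difference of 0.24 between levels beside 0.02 for all tested genes.

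Snhg11 had the smallest p of any member, 0.0372 before adjustment, between the sexes at L6S1. In male L6S1 it lay at 1135 CPM in A, 916 in D, 627 in E and 536 in F. In female L6S1 it lay at 1968, 1588 and 876 CPM in A, B and C. The groups overlapped, since female C was below 2 of the 4 male libraries. Snhg11 had a log2 difference of -0.88 in males against females (SE 0.39, adjusted p = 0.170, edgeR), which did not pass, beside a share of 0.0844% of all genes called in that comparison (13 genes) and 3998 genes at an unadjusted p under 0.05.

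In male L345 Snhg11 lay at 1232, 1280 and 1253 CPM in A, B and C, the tightest of its groups, and in female L345 at 1044, 1692 and 461 CPM. All 4 male L6S1 libraries were below all 3 of male L345, the only one of the members' comparisons between 2 groups in which the values did not overlap. How many of all tested genes separated in this way was not counted, so the separation is a description and no result about Snhg11. The difference in males was -0.64 (SE 0.39, adjusted p = 0.289, edgeR) and in females 0.47 (SE 0.42, adjusted p = 1.00, edgeR). The difference between those level effects was -1.11 (SE 0.57, adjusted p = 0.410, edgeR), so a sex difference in the level effect was not called. The value in females was 0.11 without female L345 C and 0.98 without female L345 B, and the difference of level effects ran from -1.62 to -0.75 over the same left-out libraries. The lowest 2 of the male values were in the libraries whose labels are worded differently, E and F; whether anything in their handling differed was not tested.

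Miat followed Snhg11 at a lower level. It lay at 27.6, 32.3 and 11.9 CPM in female L345 A, B and C and at 40.8, 34.1 and 22.2 CPM in female L6S1. In male L345 it lay at 27.5, 22.2 and 25.1 CPM, and in male L6S1 at 25.3, 31.4, 17.02 and 19.6 CPM in A, D, E and F. Female C was the lowest library of each female group, and all groups overlapped. The difference between levels was 0.17 over both sexes (SE 0.24, adjusted p = 0.810, edgeR), 0.44 in females (SE 0.36) and -0.09 in males (SE 0.33). Without female L345 C the value in females was 0.11, and without male L6S1 E the value in males was 0.03. Of 16 genes flanking Snhg11 or Miat, 11 were tested and 0 were called between levels; Sez6l, next to Miat, had the smallest p, at 1.58 (SE 0.47, adjusted p = 0.267, edgeR).

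Among the imprinted Dlk1-Dio3 members, Meg3 lay at 10.8, 20.9 and 8.38 CPM in female L345 A, B and C and at 7.67, 19.4 and 7.77 CPM in female L6S1. In males it lay at 8.11, 13.2 and 13.3 CPM in L345, and at 10.2, 12.8, 8.25 and 6.12 CPM in L6S1 A, D, E and F. Library B was the highest of both female groups, at about the same level in each. The difference between levels over both sexes was -0.26 (SE 0.29, adjusted p = 0.766, edgeR), and the difference of males from females over both levels was -0.26 (SE 0.29, adjusted p = 0.780, edgeR), with a share of 0.0779% of all genes called there (12 genes). Mirg ranged from 4.01 CPM in male L6S1 F to 10.9 CPM in male L6S1 D. Its group means ± SD were 8.02 ± 3.07 CPM in female L345 (n = 3), 6.40 ± 2.12 in female L6S1 (n = 3), 7.06 ± 0.863 in male L345 (n = 3) and 6.68 ± 3.19 in male L6S1 (n = 4). Its difference between levels was -0.20 (SE 0.28, adjusted p = 0.802, edgeR). Of 12 listed genes in and beside the domain that the files hold, 9 were tested and 0 were called between levels, and the smallest p belonged to Slc25a29, at 0.59 (SE 0.30, adjusted p = 0.593, edgeR).

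Kcnq1ot1 split by library letter rather than by level or sex. It lay at 27.9, 12.4 and 6.53 CPM in female L345 A, B and C and at 34.1, 12.0 and 6.67 CPM in female L6S1 A, B and C. In male L345 it lay at 23.1, 7.68 and 9.49 CPM. Library A of these 3 groups, at 23.1 to 34.1 CPM, was thus above all 10 other libraries, which lay between 5.32 and 12.4 CPM. In male L6S1 library A held 10.1 CPM, D 9.76, E 6.32 and F 5.32. The A libraries of the 3 groups pooled 7, 7 and 5 mice, and male L6S1 A pooled 9. None of the other 6 members showed that separation, since for each the lowest A library was below the highest of the other 10. How many of all tested genes showed it was not counted, so it is not shown to be particular to Kcnq1ot1. On the second principal component of all tested genes (22.1% of the variance) the same 3 libraries lay highest. They stood at 53.9 for female L345 A, 35.7 for female L6S1 A and 34.1 for male L345 A, with male L6S1 D next at 22.0.

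Other measures moved with library A of these 3 groups. The summed level of the 13 listed mitochondrial genes was 20150 CPM in female L345 A, 14751 in female L6S1 A and 13033 in male L345 A, against 5193 to 10066 CPM in the other libraries apart from male L6S1 D and E, at 15988 and 16510. The sum of endothelial and mural genes was 460, 502 and 450 CPM in those 3 libraries and 149 to 356 CPM in the other 10. That of the nuclear speckle and splicing genes was 2067, 2007 and 1952 CPM, against 1355 to 1810 CPM in the other 10. For the paraspeckle protein genes it was 1337, 1370 and 1329 CPM, against 957 to 1274 CPM. The sum of glial genes was 4445, 3318 and 4859 CPM, within or below the range of the others. The part of these in the level of Kcnq1ot1 was not tested. In bulk libraries such as these, fewer cells of a type and less RNA per cell cannot be told apart.

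**Figure D3:**
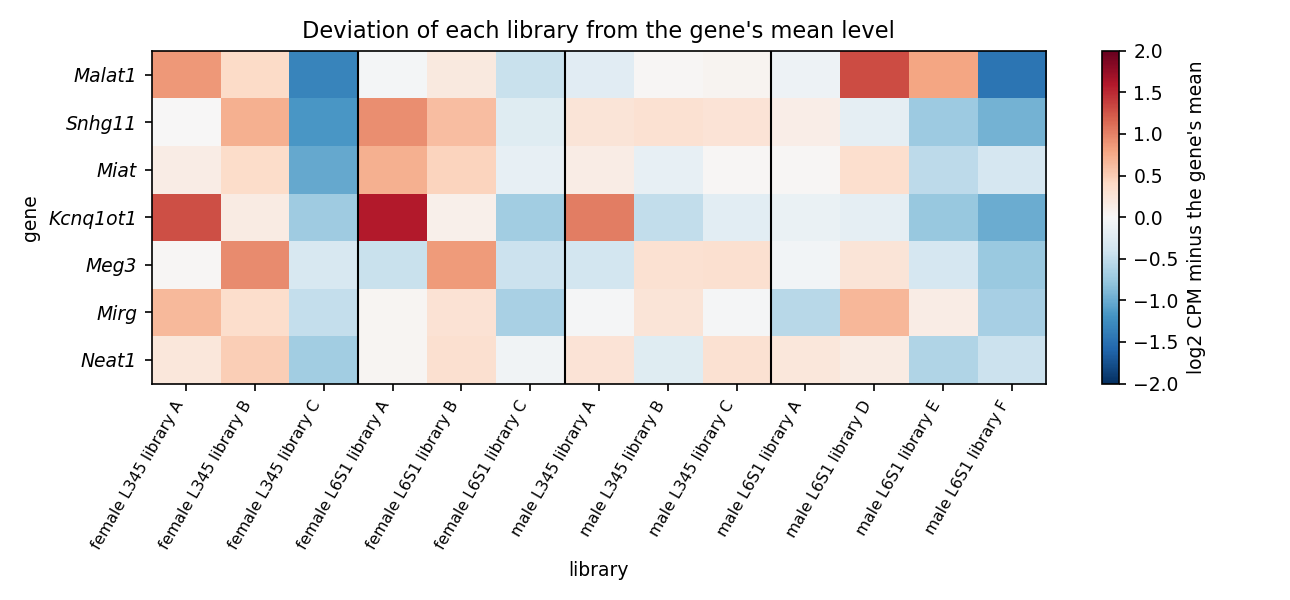
Log2 CPM of each library minus the gene's mean over 13 libraries, on a colour scale from -2 to 2, with black lines between the groups. Kcnq1ot1 is red in library A of female L345, female L6S1 and male L345, Malat1 is most red in male L6S1 D and most blue in male L6S1 F, and female L345 C is blue for every gene.

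The difference in Kcnq1ot1 between levels was -0.29 over both sexes (SE 0.40, adjusted p = 0.803, edgeR), 0.17 in females (SE 0.59) and -0.76 in males (SE 0.55, adjusted p = 0.379, edgeR). Between the sexes it was -0.69 over both levels (SE 0.41, adjusted p = 0.665, edgeR), -0.22 at L345 (SE 0.59), where 0.0325% of genes were called (5 genes), and -1.16 at L6S1 (SE 0.55, adjusted p = 0.194, edgeR). Single A libraries decided much of these sizes: without female L6S1 A the sex difference was -0.24 at L6S1 and -0.23 over both levels, and without male L345 A the level difference in males was -0.13. In females the level difference was -0.74 without L6S1 A and 0.87 without L345 A. With the title letter as a block, 3 of these passed. The blocked level difference in males was -1.36 (SE 0.36, adjusted p = 0.0467, edgeR), that between the sexes over both levels -0.86 (SE 0.21, adjusted p = 0.0473, edgeR) and that at L6S1 -1.59 (SE 0.35, adjusted p = 0.0282, edgeR). The background rose with it: under the block 4.67%, 2.4% and 4.34% of all genes were called in those comparisons. In the other blocked comparisons 0 members were called, beside 5.43% of genes between levels over both sexes, 0.623% in females, 0.201% for the difference of level effects and 0.0519% between sexes at L345. These blocked values for male L6S1 rest on library A, the only library of that group that shares a letter with another group. Whether it belongs with the other A libraries is not settled: its deviations over all genes correlated at 0.403 with female L6S1 A, at 0.123 with male L345 A and at -0.13 with female L345 A. With letters taken as pairs only within each sex, the level difference in males was -1.19 (SE 0.30, adjusted p = 0.165, edgeR). Without the 4 libraries titled A, it was -0.26 (SE 0.41, adjusted p = 0.696, edgeR).

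None of the other tested genes of the Kcnq1 imprinted domain passed, and Kcnq1, Cdkn1c and Phlda2 were low. Kcnq1, on the opposite strand, lay between 0.341 and 2.83 CPM. Cdkn1c, a cell cycle inhibitor, lay between 0.0602 and 1.51 CPM, and Phlda2, a growth-restraining gene of the placenta, between 0.661 and 2.69 CPM. Of 17 listed genes in and beside the domain, 11 were tested and 0 were called between levels or between sexes. The 17 summed to 1063 to 1344 CPM in female L345, 1065 to 1098 in female L6S1, 1212 to 1297 in male L345 and 1440 to 1693 in male L6S1. Most of that sum came from genes other than the 3 named above. Kcnq1 had the smallest p between levels, at 0.84 (SE 0.40, adjusted p = 0.593, edgeR). The exonic overlap of Kcnq1ot1 with Kcnq1 is 121 of 84395 bases, and Kcnq1 held 265 counts in all beside 3400 for Kcnq1ot1.

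The sex comparisons carry a limit: the submitters' processing notes list STAR and Salmon beside featureCounts for the female libraries and Subread with featureCounts alone for the males, so sex and processing cannot be told apart. Xist, the noncoding RNA that coats the inactive X chromosome, was between 39.5 and 106 CPM in the 6 female libraries and between 0 and 0.535 CPM in the 7 male ones. Of the 30 other long noncoding RNAs listed and present in the files, 19 were tested. Hotair, a HOX cluster antisense RNA, rose in L6S1 over both sexes (adjusted p = 0.000132, edgeR); it was close to 0 in L345, so no fold is given. Xist was lower in males, and the other 18 in each comparison did not pass. Gas5, a small nucleolar RNA host, lay between 188 and 643 CPM, highest in male L6S1 D. C1qb, a complement gene of macrophages, was the only called gene of the immune list, at 2.18 between levels (SE 0.34, adjusted p = 0.00667, edgeR). It held 871 counts in all, whereas C1qa held 5, C1qc 14 and Csf1r 73. Of the 12 immune genes 5 were tested, with a median log2 difference of 0.18 between levels beside 0.02 for all tested genes. Whether the C1qb difference reflects macrophages was not tested.

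The members were next compared with each other across the 13 libraries. These correlations of log2 CPM are descriptions, since the points share libraries, depth and scaling. Snhg11 and Miat had the highest Pearson r over the 13 libraries, 0.88, and an r of 0.92 after the group means were taken out. By Spearman they stood at 0.77, below Mirg with Malat1 (0.92) and Miat with Kcnq1ot1 (0.87). By Pearson, Mirg and Malat1 followed at 0.85, and Neat1 correlated with Miat at 0.83 and with Snhg11 at 0.80. The 2 neighbours Malat1 and Neat1 had an r of 0.47, which was 0.81 without male L6S1 D and E. The 2 imprinted neighbours Meg3 and Mirg had an r of 0.61. Meg3 and Kcnq1ot1 had the lowest r of the 21 pairs, 0.09, and the highest, 0.97, over the 9 libraries not titled A.

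**Figure D4:**
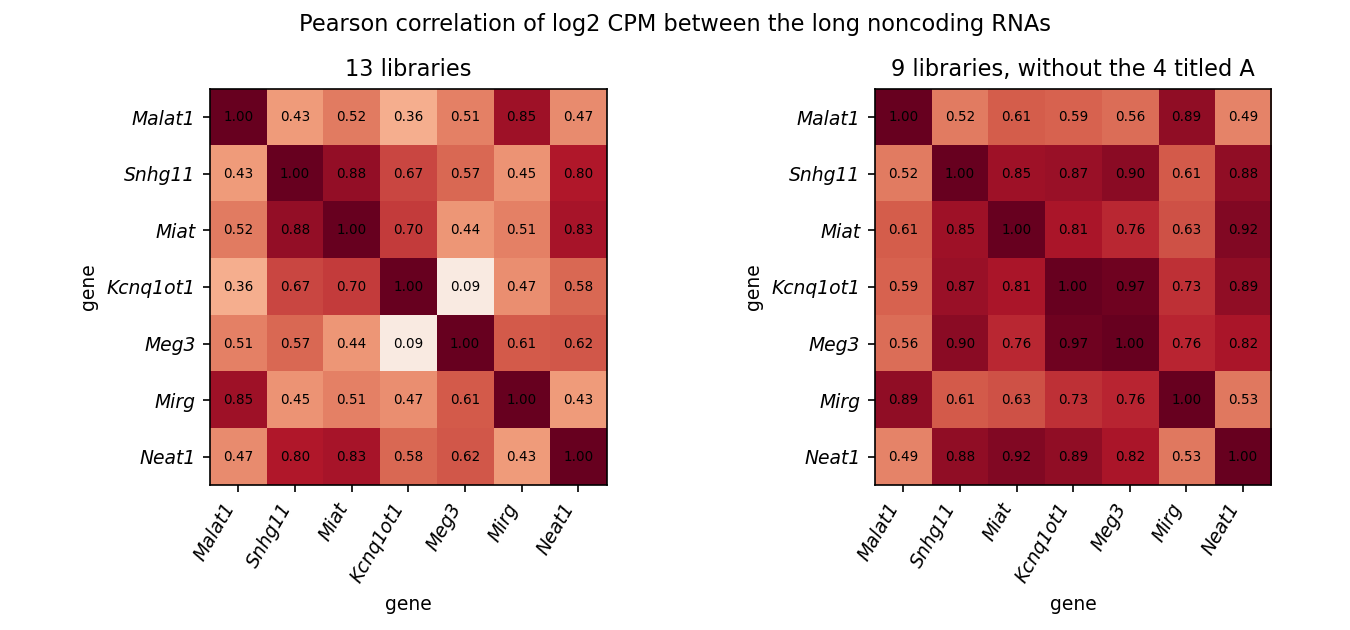
Pearson correlation of log2 CPM between the 7 members, over 13 libraries (left) and over the 9 libraries that are not titled A (right), with the value printed in each square. The pair Meg3 and Kcnq1ot1 reads 0.09 on the left and 0.97 on the right, and Mirg with Malat1 reads 0.85 and 0.89.

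Among 11879 genes with a symbol and a mean log2 CPM of at least 1, those whose levels over the 13 libraries were most like a member were named by their Pearson r. For Kcnq1ot1 these were Lin7a at 0.97, Srek1 at 0.97 and Zranb2 at 0.97, where Srek1 and Zranb2 are splicing regulators. For Malat1 they were Utp14a at 0.94, Cbx1, a heterochromatin protein, at 0.94 and Wbp4 at 0.88. Cbx1 was also among the 3 for Mirg, at 0.87, with Sft2d3 at 0.88 and Sobp at 0.87. For Snhg11 they were Nktr at 0.92, Nkapd1 at 0.92 and Stard9 at 0.91, and for Neat1 they were Gm26909 at 0.91, Gm15513 at 0.85 and Stard9 at 0.82. Miat was closest to A330023F24Rik at 0.86, Ago4 at 0.83 and Nsmaf at 0.82, and Meg3 to Soga3 at 0.81, Cacna1a at 0.78 and Rps27rt at 0.78. With group means taken out, the 3 genes nearest Kcnq1ot1 were Cdc73, Rb1cc1 and Luc7l3, each at 0.98, and for Miat they were Xkr6 at 0.96, Mir124a-1hg at 0.94 and Cep162 at 0.93. Without male L6S1 D and E, 0 of the first 3 names stayed for Kcnq1ot1, Meg3 and Mirg, and 1 for Snhg11 and Miat. Utp14a and Cbx1 stayed for Malat1, and Gm26909 and Gm15513 for Neat1. These names thus depend on the measure and the libraries, and each r is among the highest of a search over 11879 genes.

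Shared exonic bases limit how far a count can be assigned to 1 gene. Miat shared 11.9% of its exonic bases with other annotated genes, Meg3 8.29%, Malat1 7.32%, Mirg 5.94%, Rian 3.32%, Neat1 1.85%, Snhg11 1.56% and Kcnq1ot1 1.33%. For Meg3 most of this, 1228 bases, was with the antisense gene Gm26906. The overlapping genes held 0 counts in all, except 9 counts in microRNA genes for Mirg and the 265 of Kcnq1. How strand and reads that match several places were counted is not given in the sources used here.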

How the data were processed

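Bulk RNA of sorted cells was sequenced on an Illumina HiSeq instrument after SMARTer Ultra Low Input amplification of 10 ng RNA, per the labels' protocols. The deposited tables hold raw counts per gene for 13 libraries. The authors' CPM (counts over the library total) and the authors' RPKM (CPM per kilobase of exonic length) are in the same deposited tables, and both could be recomputed from the counts. featureCounts 1.4.5 and GRCm38.p2 are named for both sexes in the submitters' processing notes, with STAR 2.0.4b and Salmon for females only. Totals ran from 13030096 to 27011995 counts, which sets counting error only.

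Symbols were matched for 40254 of 41388 Ensembl identifiers. Counts were tested with edgeR 4.0.16 (R 4.3.3; filterByExpr by group, TMM factors, robust quasi-likelihood F-test, 1 mean per group, 15406 genes), with Benjamini-Hochberg adjustment over all of them and calls at an adjusted p under 0.05. SE was taken as the absolute log2 fold change divided by the root of F. Printed CPM use TMM factors; RPKM are those CPM per deposited length. Logs for correlations used CPM plus 0.5. Each library was taken as 1 replicate in the main test, without pairing, and its p-values measure the spread between libraries of a group. Female L345 and L6S1 pooled 7 and 7 mice in A, 4 and 4 in B, and 3 and 5 in C. Whether the same mice supplied both levels was not tested, so the pools are not shown to be independent. Alternatives were DESeq2 1.42.0, limma 3.58.1 (voom), other scaling, no filter, left-out libraries and the title letter as a block. The script was tested on simulated data.

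Same-letter libraries had positive correlations of their deviations in 3 of the 4 groups. These lay between 0.248 and 0.579 across levels in females (3 pairs), between 0.274 and 0.598 across sexes at L345 (3 pairs) and between 0.297 and 0.614 for female L6S1 with male L345 (3 pairs). Pairs of different letters reached 0.325, 0.372 and 0.360 in the same comparisons. The A and C pairs were above these values, whereas the B pairs, at 0.248, 0.274 and 0.297, were below them, so pairing is not clear for B. For male L6S1, which shares letter A alone, the pairing is not established: the A libraries correlated at 0.123 with male L345, 0.403 with female L6S1 and -0.13 with female L345, and libraries of different letters reached 0.518. No source used here says what the letters stand for.

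The members and lists were chosen with earlier results of these data known. Named genes were the members, called genes of each list (or the 2 of smallest p), a fixed set of domain, paraspeckle and control genes, and the 3 genes most correlated with each member. Sequences came from GENCODE M21 transcripts and RefSeq.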

Additional observations from a re-analysis of the deposited data

How the results depend on the processing

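Of 1106 member values under an alternative, 1009 kept their direction and 97 changed sign; 3 were called, all Kcnq1ot1 with the replicate block. The alternatives without the 4 libraries titled A and with the block within each sex were chosen after seeing the data. The cause of each change below was not tested. Without TMM factors, the log2 sign changed between sexes at L6S1 for Mirg (-0.12). Without the low-count filter, the number of all tested genes called was 144 between levels over both sexes, 34 between levels in females, 264 between levels in males, 1 for the difference of level effects, 19 between sexes over both levels, 8 between sexes at L345 and 197 between sexes at L6S1. With DESeq2, the number of all tested genes called was 187 between levels over both sexes, 47 between levels in females, 965 between levels in males, 24 between sexes over both levels, 8 between sexes at L345 and 1281 between sexes at L6S1. With limma voom, the number of all tested genes called was 11 between levels in females and 16 between levels in males. With limma voom, the log2 sign changed between sexes at L6S1 for Mirg (-0.0059). With the replicate block, the number of all tested genes called was 837 between levels over both sexes, 96 between levels in females, 719 between levels in males, 31 for the difference of level effects, 369 between sexes over both levels, 8 between sexes at L345 and 669 between sexes at L6S1. With the replicate block, 1 member was called between levels in males, between sexes over both levels and between sexes at L6S1, in each case Kcnq1ot1. With the replicate block, the log2 sign changed between levels over both sexes for Malat1 (-0.28), Neat1 (0.023) and Snhg11 (0.080). Between levels in males it also changed for Meg3 (0.21) and Malat1 (-0.38). For the difference of level effects it also changed for Meg3 (0.44), Mirg (-0.58) and Malat1 (-0.19). Between sexes over both levels it also changed for Meg3 (0.11), Malat1 (-0.18) and Neat1 (0.084). Between sexes at L6S1 it also changed for Meg3 (0.33), Mirg (-0.68), Malat1 (-0.27) and Neat1 (0.053). Without male L6S1 D and E, the number of all tested genes called was 23 between levels in females, 19 between levels in males, 7 between sexes over both levels and 6 between sexes at L6S1. Without male L6S1 D and E, the log2 sign changed between levels over both sexes for Malat1 (-0.45). Between levels in males it also changed for Malat1 (-0.59). For the difference of level effects it also changed for Mirg (-0.43) and Malat1 (-0.28). Between sexes over both levels it also changed for Malat1 (-0.43). Between sexes at L6S1 it also changed for Mirg (-0.61) and Malat1 (-0.57). Without male L6S1 E and F, the number of all tested genes called was 37 between levels over both sexes, 12 between levels in females, 9 between levels in males and 7 between sexes at L6S1. Without male L6S1 E and F, the log2 sign changed between levels over both sexes for Neat1 (0.047) and Snhg11 (0.088). Between levels in males it also changed for Mirg (0.13), Neat1 (0.080) and Miat (0.20). For the difference of level effects it also changed for Meg3 (0.21) and Neat1 (0.065). Between sexes over both levels it also changed for Mirg (0.046) and Neat1 (0.077). Between sexes at L6S1 it also changed for Neat1 (0.11). Without the 4 libraries titled A, the number of all tested genes called was 0 between levels in females, 103 between levels in males, 5 between sexes over both levels and 5 between sexes at L6S1. Without the 4 libraries titled A, the log2 sign changed between levels in females for Malat1 (0.14) and Kcnq1ot1 (-0.027). Between levels in males it also changed for Mirg (0.039). Between sexes over both levels it also changed for Mirg (0.20). Between sexes at L345 it also changed for Mirg (0.12) and Malat1 (0.25). Replicate block within each sex, the number of all tested genes called was 118 between levels over both sexes, 56 between levels in females and 0 between levels in males. Replicate block within each sex, the log2 sign changed between levels over both sexes for Meg3 (0.049), Neat1 (0.017) and Snhg11 (0.23). Between levels in males it also changed for Meg3 (0.33). For the difference of level effects it also changed for Meg3 (0.56) and Mirg (-0.26). Between levels over both sexes, the log2 difference without 1 library ran from -0.75 to 0.048 for Kcnq1ot1, from -0.15 to 0.31 for Malat1, from -0.28 to 0.015 for Neat1 and from -0.27 to 0.17 for Snhg11. The number of all tested genes called between levels over both sexes ran from 28 (without female L345 B) to 129 (without male L6S1 A) over the left-out libraries. Between levels in females, the log2 difference without 1 library ran from -0.74 to 0.87 for Kcnq1ot1, from -0.72 to 0.14 for Malat1, from -0.79 to 0.28 for Meg3 and from -0.28 to 0.30 for Neat1. The number of all tested genes called between levels in females ran from 0 (without female L345 B) to 11 (without male L6S1 E) over the left-out libraries. Between levels in males, the log2 difference without 1 library ran from -0.30 to 0.028 for Miat and from -0.46 to 0.10 for Mirg. The number of all tested genes called between levels in males ran from 4 (without male L345 C) to 3135 (without male L6S1 A) over the left-out libraries. For the difference of level effects, the log2 difference without 1 library ran from -0.59 to 0.48 for Meg3, from -0.13 to 0.51 for Mirg and from -0.58 to 0.014 for Neat1. Between sexes over both levels, the log2 difference without 1 library ran from -0.12 to 0.34 for Malat1, from -0.39 to 0.031 for Meg3, from -0.25 to 0.055 for Mirg and from -0.25 to 0.047 for Neat1. Between sexes at L345, the log2 difference without 1 library ran from -0.86 to 0.48 for Kcnq1ot1, from -0.69 to 0.17 for Malat1, from -0.46 to 0.27 for Meg3, from -0.26 to 0.34 for Miat, from -0.45 to 0.069 for Mirg, from -0.25 to 0.33 for Neat1 and from -0.12 to 0.74 for Snhg11. Between sexes at L6S1, the log2 difference without 1 library ran from -0.54 to 0.27 for Meg3 and from -0.32 to 0.28 for Mirg. The number of all tested genes called between sexes at L6S1 ran from 9 (without female L6S1 A) to 3149 (without male L6S1 A) over the left-out libraries. The block left 4 residual degrees of freedom and the block within each sex 2, against 9 without, and male L6S1 enters the block through library A alone, whose pairing is not established. The block changed no other member's call. The low members carry counting error of 5.87% (Miat) to 13.6% (Neat1) at their smallest count.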
